A study of Mus musculus with 12 samples.

Results

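NIH3T3 cells, an immortalised mouse embryo fibroblast line, were infected with a virus that carried Tead2-VP16 and grown to high density, and their mRNA was compared with that of sparse cells infected with the control vector. Tead2-VP16 joins the transcription factor Tead2 to VP16, a strong transcriptional activation domain. The comparison used 4 of the 12 arrays in the series. The 2 Tead2-VP16 arrays came from cells that the labels call proliferating and that were collected just beyond the density at which normal cells become confluent, and the 2 sparse control arrays came from cells at 30% confluency. Arrays were put into groups by the sample titles alone. A further 3 groups of 2 arrays served as references: completely confluent control vector cells, completely confluent Tead2-VP16 cells, and cells with Yap at the same high density as the Tead2-VP16 cells. The sixth group, sparse Tead2-EnR cells, was not compared, but entered the choice of each gene's probe set and the shared estimate of array spread. Each group was total RNA from NIH3T3 cells on an Affymetrix mouse array that reads genes through sets of short probes near the 3′ end. Nothing in the labels ties the 2 arrays of a group to separate cultures, so the p-values cover array-to-array spread that may be technical. No array held Tead2-VP16 cells at low density, and none held control vector cells at the high density of the Tead2-VP16 cells. Vector and density therefore changed together in this comparison and in that with confluent control. Their shares cannot be told apart in either.

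Tead proteins bind DNA but activate genes only with a coactivator, and Yap and its relative Taz are the best known of these. When fibroblasts touch their neighbours, the Hippo kinases phosphorylate Yap, which leaves the nucleus, and Tead targets such as Ccn2, Ccn1 and Ankrd1 fall. Growth then slows, which is known as contact inhibition. Tead2-VP16 carries its own activation domain, so the question put to these arrays was which density-dependent genes dense Tead2-VP16 cells held at the level of sparse control cells.

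The arrays of a group resembled each other closely. Across 18193 genes, each read by the single-symbol probe set with the highest mean, the log2 levels of the 2 arrays of a group correlated with r of 0.9976 to 0.9986. The mean of the Tead2-VP16 cells at high density correlated with that of sparse control cells at r = 0.9758, of confluent control cells at 0.9929 and of Yap cells at 0.9983. These correlations run across genes, which are not independent replicates. The log2 difference between the 3′ and 5′ probe sets of beta-actin, a sign of RNA quality, was 0.081 ± 0.007 in sparse control and 0.231 ± 0.078 in Tead2-VP16 cells (SD, n = 2 each). The same difference for the transferrin receptor was 0.978 ± 0.052 and 1.228 ± 0.001. Their part in the results below was not tested. The 7 fibroblast markers all lay above the level of the median gene, among them Col1a1, at a mean log2 level of 13.17 in sparse control and 13.80 in Tead2-VP16 cells.

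In dense Tead2-VP16 cells, 7806 genes (42.9% of those tested) differed from sparse control cells at a limma adjusted p below 0.05. Of these, 4260 (23.4%) were higher and 3546 (19.5%) lower. The higher share of the calls was 54.6%, and it was 41.7% when each array was centred on its median, which moved the median difference over all genes from 0.008 to -0.083 on the log2 scale. A change of at least 2-fold was reached by 699 genes upward (3.84%) and 608 genes downward (3.34%). The 2 groups' arrays did not overlap for 12022 genes (66.1%).

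The density response itself was taken from the control vector cells. Between sparse and confluent control cells, 8898 genes (48.9%) passed the test, and 1050 rose (5.77%) and 944 fell (5.19%) by at least 2-fold. These 1994 genes are called density-dependent below. Their density step chose them and is given as a description. The step and the Tead2-VP16 comparison share the sparse control arrays. Each density-dependent gene was placed by its level in dense Tead2-VP16 cells. A gene was at the sparse level where the whole 95% interval of the difference from sparse control lay within -0.5 to 0.5 on the log2 scale, and at the confluent level where the same held against confluent control.

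Dense Tead2-VP16 cells kept 72 of the 1994 density-dependent genes at the sparse level, or 3.61%. These were 40 genes that rose with density in control cells (3.81% of those that rose) and 32 that fell (3.39% of those that fell). Over all genes tested, 62.4% had an interval against sparse control within the same limits. By contrast, 910 density-dependent genes (45.6%) were at the confluent level, where 78.9% of all genes tested had an interval within the limits. Another 877 (44.0%) lay in between, differing from both control groups in opposite directions. A further 52 had gone past the confluent level, 9 had moved to the far side of the sparse level, and 74 could not be placed. On a path on which the sparse control is 0 and the confluent control 100%, the median density-dependent gene stood at 73.4% if it rose with density (quartiles 57.2 and 88.5%) and at 80.1% if it fell (quartiles 62.8 and 97.5%). The dense Tead2-VP16 cells thus sat nearer the confluent than the sparse control for most of these genes. The confluent control was completely confluent, and the Tead2-VP16 cells were collected just beyond confluence. Whether the vector or this difference in density set these positions cannot be told apart.

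**Figure D1:**
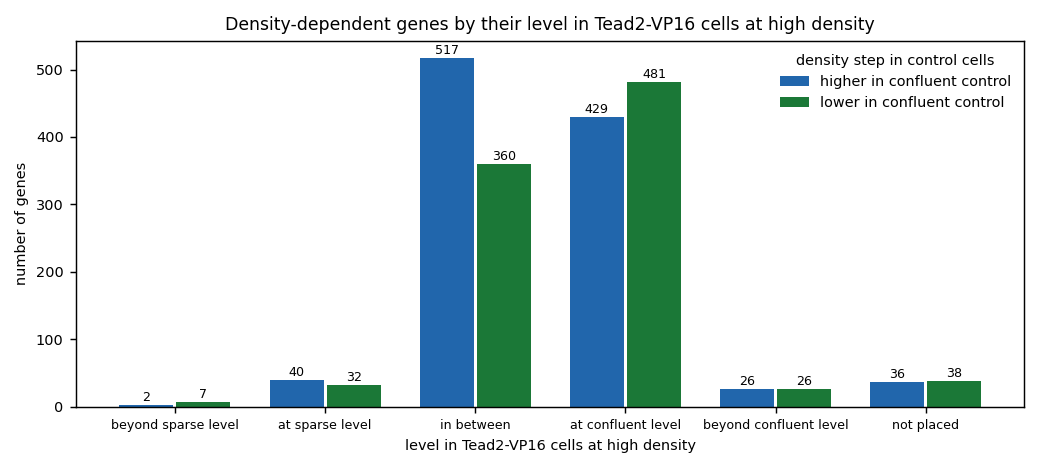
Number of density-dependent genes (vertical axis) by where their level in dense Tead2-VP16 cells lay (horizontal axis), with genes that rose with density in control cells in blue and genes that fell in green. The bars at the sparse level hold 40 and 32 genes, against 429 and 481 at the confluent level and 517 and 360 in between.

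The count of kept genes depended on the limits that define it. With limits of -0.3 to 0.3 it was 16 genes, with -1 to 1 it was 142, and with density-dependence set at 3-fold it was 14. Just inside the limits were Dnajb4, Gm2115 and Cela1, whose intervals reached 0.498 to 0.499 from 0, and just outside were Mb21d2, Lurap1l and Fam110c, which reached 0.502 to 0.509. At the edge of the density step, Aatf and Tmed5 were inside the 2-fold limit at 1.0001 and 1.0002, and Megf9 and Fmod were outside it, both at 0.99947. When arrays were centred on their medians, 75 genes were kept, of which 46 were among the 72.

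The Tead factors and their coactivators came first. Tead2 itself was read by a single probe set, at 9.63 and 9.62 in sparse control and 9.41 and 9.23 in dense Tead2-VP16 cells (log2 intensity on each array, as for all array values below). This was a log2 difference of -0.31 ± 0.066 (SE, as for every difference below; adjusted p = 0.0034). Whether its probes lie in the part of Tead2 that the fusion holds is not given in the sources used here, so the probe set does not check the vector. Tead4, a Tead family member that fell with density in control cells, read 8.39 and 8.42 in sparse control, 7.65 and 7.70 in Tead2-VP16 and 6.69 and 6.50 in confluent control cells. It differed from sparse control by -0.73 ± 0.078 (adjusted p = 2.9e-05) and from confluent control by 1.09 ± 0.078 (adjusted p = 9.6e-06), and the 3 groups did not overlap. For Tead1 and Tead3 the differences from sparse control were 0.04 ± 0.059 and -0.20 ± 0.14 and did not pass the test, and the 2 probe sets of Tead1 differed in sign. Yap1 stood at -0.16 ± 0.052 (adjusted p = 0.031), a call that was lost without either array of each group in turn. Wwtr1, which encodes Taz, stood at 0.19 ± 0.052 (adjusted p = 0.015), but the sign came from 1 of its 3 probe sets and the call was lost with their mean.

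The best known Tead targets were not held at the sparse level. Ccn2, a secreted matricellular protein and a standard readout of Yap, read 11.59 and 11.62 in sparse control, 8.85 and 8.84 in dense Tead2-VP16 and 6.31 and 6.71 in confluent control cells. No groups overlapped. Its level in Tead2-VP16 cells was 6.78-fold below sparse control (log2 difference -2.76 ± 0.11, adjusted p = 2.5e-08) and 5.04-fold above confluent control (2.33 ± 0.11, adjusted p = 6.3e-07). Ccn1, a relative of Ccn2, read 10.70 and 10.67 in sparse control, 9.82 and 9.70 in Tead2-VP16 and 9.23 and 9.21 in confluent control cells. It was -0.93 ± 0.055 from sparse and 0.54 ± 0.055 from confluent control (adjusted p = 4.5e-07 and 8.1e-05). Ankrd1, a nuclear ankyrin repeat protein, read 8.84 and 9.02 (sparse), 7.69 and 7.58 (Tead2-VP16) and 6.91 and 7.14 (confluent). Its differences were -1.29 ± 0.091 and 0.61 ± 0.091 (adjusted p = 1.5e-06 and 0.00079). Ccn2 and Ankrd1 thus lay between the control states, with no overlap of arrays. Ccn1 did so by its brightest probe set and by 1 other. The remaining 2 of its 4 probe sets did not fall with density, with steps of 0.19 and 0.22, and put Tead2-VP16 cells below sparse (-0.94 and -0.87) and below confluent control (-1.13 and -1.08). All 4 probe sets placed Ccn1 lower than in sparse control.

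**Figure D2:**
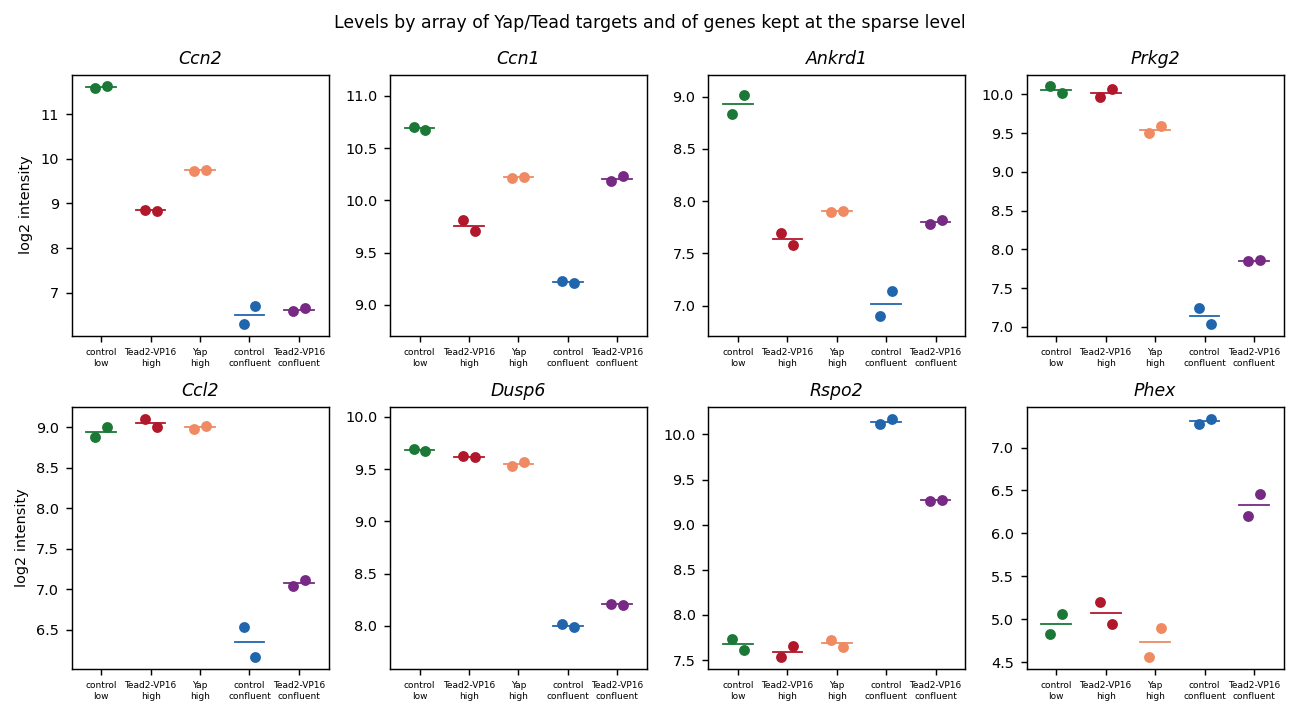
Log2 intensity (vertical axis, own range in each panel) on each array of 5 groups, with dots for arrays and lines for group means. Ccn2, Ankrd1 and the plotted Ccn1 probe set, from which 2 of the 4 Ccn1 probe sets differ, sat between the sparse and the confluent control in dense Tead2-VP16 cells, while Prkg2, Ccl2, Dusp6, Rspo2 and Phex sat beside the sparse control.

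The promoters of the Tead targets that could be matched are shown because Tead proteins are known to bind the sequence GGAATG. The 250 bases before the start site are printed 5′ to 3′ on the gene's strand (RefSeq, GRCm38.p6), with GGAATG or its reverse complement CATTCC in capitals.
Ankrd1, chr19:36119845-36120094, minus strand: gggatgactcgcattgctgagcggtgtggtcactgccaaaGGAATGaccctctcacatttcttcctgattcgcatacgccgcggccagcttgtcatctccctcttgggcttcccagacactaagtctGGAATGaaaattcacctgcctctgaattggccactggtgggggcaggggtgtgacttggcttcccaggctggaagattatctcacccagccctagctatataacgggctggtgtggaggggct
Ccn1, chr3:145649986-145650235, minus strand: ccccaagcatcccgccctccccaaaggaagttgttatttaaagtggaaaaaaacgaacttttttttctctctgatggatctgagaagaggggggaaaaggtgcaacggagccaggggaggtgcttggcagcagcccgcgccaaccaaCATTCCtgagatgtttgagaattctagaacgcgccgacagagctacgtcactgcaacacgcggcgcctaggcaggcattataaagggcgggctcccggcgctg
The Ankrd1 window held 2 matches, at 210 and 123 bases before the start, and the Ccn1 window held 1, at 103 bases before it. On either strand and within 250 bases before to 50 bases after a start site, GGAATG stood in 14.7% of all 32851 promoters in the RefSeq table and in 13.2% of those of the genes tested. It stood in 1 of the 23 promoters of genes that fell with density and were kept at the sparse level (4.35%), and in 5 of 39 (12.8%) of those that rose and were kept. That 1 match in the kept falls was Tagln2, an actin-binding protein, at 118 and 80 bases before its start.
Tagln2, chr1:172499996-172500245, plus strand: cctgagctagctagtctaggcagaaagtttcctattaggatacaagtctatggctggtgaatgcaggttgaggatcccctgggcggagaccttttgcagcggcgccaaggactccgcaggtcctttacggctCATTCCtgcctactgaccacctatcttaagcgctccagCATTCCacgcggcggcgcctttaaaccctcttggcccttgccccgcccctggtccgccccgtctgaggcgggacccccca
A match is only a description of these letters and not a binding site. Tagln2 itself read 11.61 and 11.59 in sparse control, 11.42 and 11.39 in Tead2-VP16 and 10.40 and 10.26 in confluent control cells, and its interval against sparse control was -0.35 to -0.04. Only 2 of its 3 probe sets agreed in sign, and their mean gave a difference of 0.01.

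A wider list of 26 Yap and Tead targets moved in both directions. Against sparse control, 13 of the 26 were higher and 8 lower, with a median difference of 0.095, against 0.008 over all genes. The largest rises were F3, the initiator of blood clotting, at 3.89-fold (1.96 ± 0.056), Gas6, a ligand of Axl family receptors, at 3.64-fold (1.86 ± 0.056), and Tgm2, a protein crosslinking enzyme, at 2.72-fold (1.45 ± 0.071). Each had a limma adjusted p of 1.3e-07 or below. F3 and Gas6 also rose with density in control cells, by 2.41 and 3.30. Tgm2 read 9.19 and 9.21 in sparse control, 10.71 and 10.59 in Tead2-VP16 and 9.71 and 9.72 in confluent control cells, and so was above both control states. Of the 11 targets that were density-dependent, 2 were kept at the sparse level, Tnfrsf12a and Nuak2, 8 lay in between and 1 at the confluent level. Among 27 Hippo pathway components, 5 were higher and 10 lower than in sparse control (median -0.145), where 23.4% of all genes were higher and 19.5% lower. Wwc1, an upstream activator of the pathway also called Kibra, fell 2.32-fold (-1.21 ± 0.063), and Vgll3, a Tead cofactor, fell 1.96-fold (-0.97 ± 0.064), both to the confluent level.

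Among the 32 genes that fell with density in control cells but were kept at the sparse level were Prkg2, Dusp6 and Ccl2. Prkg2, a cyclic GMP-dependent protein kinase, read 10.10 and 10.02 in sparse control, 9.97 and 10.07 in dense Tead2-VP16 and 7.24 and 7.04 in confluent control cells. The Tead2-VP16 and sparse control arrays overlapped, and both confluent arrays were far lower. The interval against sparse control was -0.21 to 0.13, and Tead2-VP16 cells held 7.36-fold more than confluent control (2.88 ± 0.075, adjusted p = 2.4e-08). Dusp6, the phosphatase that turns off ERK and is itself induced by ERK, read 9.70 and 9.67 in sparse control, 9.62 and 9.61 in Tead2-VP16 and 8.01 and 7.98 in confluent control cells. Its interval against sparse control was -0.17 to 0.04, and it was 3.07-fold above confluent control (1.62 ± 0.048, adjusted p = 5.5e-08). Ccl2, a chemokine that draws monocytes, read 8.88 and 9.01 (sparse), 9.10 and 9.001 (Tead2-VP16) and 6.54 and 6.17 (confluent). With an interval of -0.14 to 0.35 against sparse control, it was 6.49-fold above confluent control (2.70 ± 0.11, adjusted p = 3.5e-07).

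Id1, Skil, Smad7, Tnfrsf12a and Nuak2 were kept as well. Id1, a BMP target that blocks differentiation factors, read 10.61 and 10.63 in sparse control, 10.47 and 10.40 in Tead2-VP16 and 8.04 and 8.03 in confluent control cells, with an interval of -0.33 to -0.05 against sparse control. Skil, a repressor of Smad proteins, read 9.31 and 9.26 (sparse), 9.07 and 9.04 (Tead2-VP16) and 7.75 and 7.61 (confluent) (interval -0.36 to -0.10). Smad7, the inhibitory Smad, read 9.03 and 9.01 (sparse), 8.86 and 8.89 (Tead2-VP16) and 7.67 and 7.87 (confluent) (interval -0.31 to 0.01), although 1 of its 2 probe sets had the opposite sign. The Tead2-VP16 arrays of all 3 genes lay a little below those of sparse control and more than 0.9 above those of confluent control. Tnfrsf12a, the receptor for the cytokine TWEAK, read 11.35 and 11.35 (sparse), 11.06 and 11.19 (Tead2-VP16) and 9.57 and 9.71 (confluent) (interval -0.44 to -0.01). Nuak2, a kinase related to AMPK, read 8.70 and 8.76 (sparse), 8.49 and 8.53 (Tead2-VP16) and 7.64 and 7.59 (confluent) (interval -0.35 to -0.08). The growth factor Fgf2 was also kept (interval -0.37 to 0.23), but at mean log2 levels of 5.36 in sparse control and 5.29 in Tead2-VP16 cells it lay below the median gene of 6.87.

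Further kept falls had other functions. Tubb6, a beta-tubulin, read 11.41 and 11.36 in sparse control, 11.04 and 11.01 in Tead2-VP16 and 9.77 and 9.80 in confluent control cells. Its Tead2-VP16 arrays lay below those of sparse control, with an interval of -0.48 to -0.25. Slc16a1, a lactate transporter, read 11.61 and 11.59 (sparse), 11.65 and 11.74 (Tead2-VP16) and 10.34 and 10.43 (confluent), and its Tead2-VP16 arrays lay above those of sparse control (interval -0.03 to 0.22). Coro1c, an actin-binding coronin, and Lmna, the nuclear lamin A/C, had intervals of -0.24 to 0.06 and -0.41 to -0.12. Another Lmna probe set gave a difference of -0.54, beyond the limit of -0.5. Hk2, the first enzyme of glycolysis, and Fzd7, a Wnt receptor, were near the limit at -0.49 to -0.16 and -0.46 to -0.15.

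Genes of cholesterol synthesis were among the kept falls. Sqle, squalene epoxidase, read 12.22 and 12.19 in sparse control, 11.95 and 11.92 in Tead2-VP16 and 11.02 and 11.02 in confluent control cells. Insig1, which holds the sterol sensor in the endoplasmic reticulum, read 9.92 and 10.04 (sparse), 10.10 and 10.19 (Tead2-VP16) and 8.81 and 8.90 (confluent). Nsdhl, a sterol dehydrogenase, read 10.09 and 10.07 (sparse), 9.83 and 9.76 (Tead2-VP16) and 8.99 and 9.001 (confluent). Intervals against sparse control were -0.39 to -0.14, 0.02 to 0.31 and -0.43 to -0.15. The pathway as a whole held 20 measured genes, of which 12 were among the density-dependent falls. Its median was -1.10 in confluent control, -0.36 in Tead2-VP16 and -0.076 in Yap cells, all relative to sparse control. In Tead2-VP16 cells 14 of the 20 were lower and 2 higher than in sparse control, where 19.5% and 23.4% of all genes were. Of the 20, 9 lay in between, and 18 were higher than in confluent control, where 13.2% of all genes were. Tm7sf2 went the other way, at 1.54 from sparse control against a density step of 1.40. Idi1, an isoprenoid isomerase, read 11.77 and 11.82 (sparse), 10.82 and 10.94 (Tead2-VP16) and 9.21 and 9.34 (confluent). It fell 1.88-fold against sparse control (-0.91 ± 0.066, adjusted p = 1.8e-06) but stood 3.04-fold above confluent control (1.60 ± 0.066).

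Genes that rose with density in control cells but were held low included Rspo2 and Phex, both secreted or at the cell surface. Rspo2, a secreted enhancer of Wnt signalling, read 7.74 and 7.61 in sparse control, 7.54 and 7.65 in dense Tead2-VP16 and 10.12 and 10.17 in confluent control cells. The Tead2-VP16 and sparse control arrays overlapped, with an interval of -0.22 to 0.06, and Tead2-VP16 cells held 5.85-fold less than confluent control (-2.55 ± 0.065, adjusted p = 2.4e-08). Phex, a cell surface endopeptidase of phosphate balance, read 4.83 and 5.06 (sparse), 5.20 and 4.94 (Tead2-VP16) and 7.28 and 7.33 (confluent). Both the sparse and the Tead2-VP16 readings lay below the median gene of 6.87 and were not shown to be above background. Its interval was -0.18 to 0.44, and it was 4.7-fold below confluent control (-2.23 ± 0.14, adjusted p = 4.0e-06). Csgalnact1, which starts chondroitin sulphate chains, and Adamts5, an aggrecan-cleaving protease, had intervals of 0.20 to 0.48 and 0.14 to 0.39 against density steps of 1.49 and 1.31, and 3 of the 4 probe sets of Adamts5 agreed in sign. Tnn, tenascin N, had an interval of -0.11 to 0.35 against a step of 1.30. Its mean over the 12 arrays, 6.76, lay below the median gene.

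Other kept rises included nuclear factors and insulin pathway genes. Ldb2, a partner of LIM-domain factors, read 8.16 and 8.17 in sparse control, 8.27 and 8.39 in Tead2-VP16 and 9.88 and 9.90 in confluent control cells (interval 0.04 to 0.29). Its other probe sets gave differences of 0.47 and 0.68 from sparse control, the latter beyond the limit of 0.5. H1f2, a linker histone with the largest step of the group (2.93), read 7.98 and 8.02 (sparse), 8.37 and 8.27 (Tead2-VP16) and 10.90 and 10.96 (confluent) (interval 0.17 to 0.47). Its arrays in Tead2-VP16 cells lay above those of sparse control, and 1 of its 3 probe sets had the opposite sign. Another H1f2 probe set gave a difference of 0.63 from sparse control, beyond the limit of 0.5. Mecom and Tcf4, which encode transcriptional regulators, had intervals of -0.28 to 0.02 and -0.07 to 0.37. Irs1, the insulin receptor substrate, and Igf2r, the receptor that clears Igf2, had intervals of 0.20 to 0.50 and 0.09 to 0.40. Irs1 was at the limit and was kept in 4 of 17 alternative settings, the fewest of the 72 genes, and Igf2r in 11. Igf2, an insulin-like growth factor, read 6.34 and 6.49 (sparse), 6.46 and 6.25 (Tead2-VP16) and 7.92 and 7.84 (confluent) (interval -0.35 to 0.23). Its 2 probe sets had opposite signs. Its sparse and Tead2-VP16 readings lay below the median gene of 6.87 and were not shown to be above background. The mitochondrial ribosomal protein gene Mrps6 read 11.04 and 10.94 (sparse), 11.20 and 11.15 (Tead2-VP16) and 12.66 and 12.72 (confluent) (interval 0.05 to 0.31). Beyond the 8 largest steps in each direction, the kept genes described here were chosen after their values were seen. Only Prkg2, Dusp6 and Rspo2 were kept under all 17 alternative settings.

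The kept genes were also read in the other dense states. In Yap cells the median difference from sparse control was -0.26 for the 32 kept falls and 0.32 for the 40 kept rises, where the medians over all density-dependent falls and rises were -1.11 and 1.01. Both comparisons use the same sparse control arrays. From high density to complete confluency within Tead2-VP16 cells, the kept falls had a median change of -0.87 and the kept rises of 0.60, against -0.26 and 0.30 over all density-dependent falls and rises. In that step 4465 genes (24.5%) passed the test, a count that was 2765 without the first Tead2-VP16 array at high density. Prkg2 went from 9.97 and 10.07 to 7.84 and 7.87 (-2.16 ± 0.075, adjusted p = 3.5e-07). Id1 went from 10.47 and 10.40 to 7.35 and 7.48, below the confluent control. Slc16a1 stayed higher, at 11.50 and 11.49 on the completely confluent Tead2-VP16 arrays. These steps share the high density arrays that placed the genes.

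Most cell division genes lay at the confluent level. All 50 measured mitosis genes were lower in dense Tead2-VP16 than in sparse control cells, where 19.5% of all genes were. The labels nevertheless call the dense Tead2-VP16 cells proliferating. The median difference was -2.70, and it was -2.53 for confluent against sparse control. Of the 50 genes, 38 were at the confluent level, 4 in between and none at the sparse level. Bub1, a spindle checkpoint kinase, read 10.75 and 10.74 in sparse control, 7.17 and 7.18 in Tead2-VP16 and 7.45 and 7.48 in confluent control cells. It fell 11.9-fold (-3.57 ± 0.055, adjusted p = 5.7e-10). In bulk RNA, fewer dividing cells and less of these mRNAs per cell cannot be told apart. Birc5, or survivin, read 11.36 and 11.35 (sparse), 8.19 and 8.15 (Tead2-VP16) and 8.18 and 8.18 (confluent), and fell 9.08-fold (-3.18 ± 0.061). Against confluent control, 5 of the 50 mitosis genes were higher and 11 lower, where 26.9% of all genes passed in either direction. Top2a, the topoisomerase that untangles chromosomes, was among those below both control states, at 11.15 and 11.26 in sparse control, 8.78 and 8.61 in Tead2-VP16 and 9.99 and 10.05 in confluent control cells (-2.51 ± 0.069 and -1.33 ± 0.069). This place rests on its brightest probe set. The others, below the level of the median gene, gave -0.27 and 0.09 against confluent control.

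DNA replication genes were lower as well. All 43 measured were lower than in sparse control, where 19.5% of all genes were. Their median was -1.99, and -2.13 in confluent control, and 31 of them were at the confluent level and 9 in between. Tk1, thymidine kinase, read 10.76 and 10.80 in sparse control, 7.54 and 7.50 in Tead2-VP16 and 7.46 and 7.60 in confluent control cells, a 9.56-fold fall (-3.26 ± 0.059, adjusted p = 5.8e-10). The helicase subunit Mcm5 read 11.63 and 11.76 (sparse), 8.68 and 8.57 (Tead2-VP16) and 8.38 and 8.43 (confluent) and fell 8.41-fold. Mcm3, of the same complex, was placed in between, 0.38 ± 0.056 above confluent control (adjusted p = 0.00072). Of 20 G1 cyclins and inhibitors, 6 were higher and 11 lower than in sparse control, where 23.4% of all genes were higher and 19.5% lower. Ccne2, cyclin E2, fell 6.43-fold (-2.68 ± 0.095), and Ccnd1, cyclin D1, fell 1.68-fold (-0.74 ± 0.056).

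Other genes rose to the confluent level. Aldh6a1, a mitochondrial dehydrogenase of valine breakdown, read 5.78 and 5.96 in sparse control, 8.84 and 8.95 in Tead2-VP16 and 9.004 and 9.11 in confluent control cells, an 8.16-fold rise (3.03 ± 0.072, adjusted p = 1.6e-09). Fcgrt, the neonatal Fc receptor, rose 6.82-fold (2.77 ± 0.052), and Mylk, the myosin light chain kinase, 5.77-fold (2.53 ± 0.060). The sparse readings of Aldh6a1 and of Mylk, 6.23 and 6.29 for the latter, lay below the median gene of 6.87.

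Most ribosome biogenesis genes lay between the control states. Of 33 genes, 32 were lower in Tead2-VP16 than in sparse control cells, and 27 were higher than in confluent control. Of all genes, 19.5% were lower than in sparse control and 13.2% higher than in confluent control. The list median from sparse control was -0.92, and it was -0.96 in Yap and -1.56 in confluent control cells. Among the 26 that were density-dependent falls, 21 were in between and 4 at the confluent level. Odc1, the rate-limiting enzyme of polyamine synthesis, read 12.18 and 12.19 in sparse control, 10.77 and 10.77 in Tead2-VP16 and 9.91 and 9.87 in confluent control cells. It fell 2.67-fold against sparse control (-1.42 ± 0.051, adjusted p = 1.7e-08) and was 1.83-fold above confluent control (0.87 ± 0.051). Nop16, a nucleolar protein, read 10.11 and 10.15 (sparse), 8.76 and 8.68 (Tead2-VP16) and 7.88 and 7.91 (confluent) and fell 2.67-fold (-1.42 ± 0.053).

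Many growth arrest genes rose part of the way. Of 33 measured, 25 were higher and 4 lower than in sparse control, and 22 were lower than in confluent control. Of all genes, 23.4% were higher and 19.5% lower than in sparse control, and 13.7% lower than in confluent control. The list median from sparse control was 0.87, and it was 0.88 in Yap and 1.32 in confluent control cells. Of the 20 density-dependent rises, 16 were in between and 4 at the confluent level. Bmf, a BH3-only inducer of apoptosis, read 4.35 and 4.67 in sparse control, 8.48 and 8.48 in Tead2-VP16 and 9.33 and 9.35 in confluent control cells, a rise of 3.97 ± 0.089 on the log2 scale (adjusted p = 1.3e-09). Its sparse readings were below the median gene, and its other 2 probe sets gave 0.65 and 0.033. Ccng2, a cyclin of arrested cells, rose 5.8-fold (2.54 ± 0.062), and Pdgfra, a growth factor receptor, 4.61-fold (2.20 ± 0.075). Outside these lists, Mycn, a Myc family factor, had the largest rise of all named genes, from 7.32 and 7.45 to 12.40 and 12.22 (30.3-fold, 4.92 ± 0.077, adjusted p = 5.7e-10), but only 1 of its 3 probe sets had that sign.

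Most genes of the extracellular matrix were higher than in sparse control, where 23.4% of all genes were higher and 19.5% lower. Among 22 collagen genes, 17 were higher and 1 lower than in sparse control, with a median of 0.88 in Tead2-VP16 and 0.87 in confluent control cells. Among 42 proteoglycans and glycoproteins, 28 were higher and 1 lower (medians 0.67 and 0.90). Dcn, the collagen-binding proteoglycan decorin, read 7.57 and 7.53 in sparse control, 11.22 and 11.18 in Tead2-VP16 and 13.37 and 13.34 in confluent control cells. It rose 12.5-fold (3.65 ± 0.061, adjusted p = 5.7e-10), yet was 4.45-fold below confluent control. Sned1, a matrix glycoprotein, rose 13.1-fold (3.71 ± 0.064) to between the control states. Abi3bp, a matrix protein, read 3.21 and 2.77 (sparse), 6.997 and 7.12 (Tead2-VP16) and 9.26 and 9.16 (confluent). Its sparse readings lay far below the median gene of 6.87 and were not shown to be above background, so no fold is given. Col3a1, a fibrillar collagen, rose 3.06-fold (1.61 ± 0.058), and Col4a1, of basement membranes, rose 2.52-fold (1.33 ± 0.055) and was above both control states. In matrix remodelling, 13 of 24 genes were higher and 4 lower. Plat, tissue plasminogen activator, rose 4.59-fold (2.20 ± 0.057) to above both control states, and Mmp14, a membrane collagenase, 3.52-fold (1.82 ± 0.079).

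**Figure D3:**
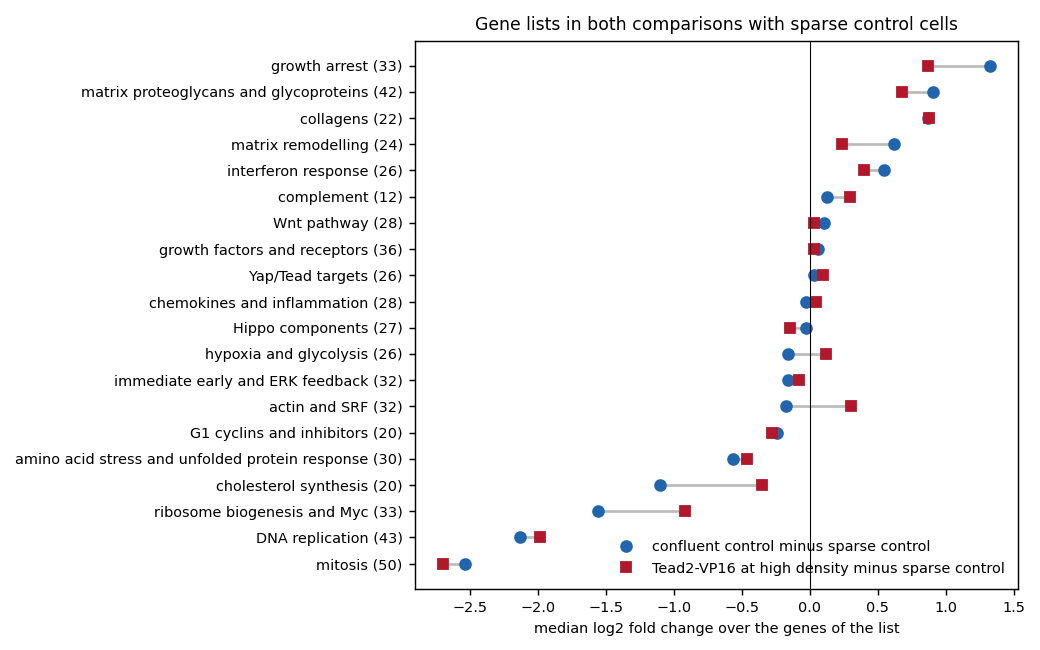
Median log2 fold change against sparse control (horizontal axis) over the genes of each list (vertical axis, number of genes in brackets), with squares for dense Tead2-VP16 and circles for confluent control cells. The squares lie nearer 0 than the circles for cholesterol synthesis (-0.36 and -1.10) and ribosome biogenesis (-0.92 and -1.56), and beside them for mitosis (-2.70 and -2.53).

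Dense Tead2-VP16 cells also held genes at levels that neither control state showed. Neither control state was at the density of these cells, so vector and density cannot be told apart here. Yap cells did not enter the rule that follows. A gene counted as above or below both control groups where both differences had the same sign and the larger of the 2 p-values passed after adjustment. This gave 478 genes above (2.63%) and 264 below (1.45%), 742 in all. The total was 368 and 451 without the first and second Tead2-VP16 array and 399 and 451 without the first and second confluent control array. A difference of at least 2-fold from both controls was reached by 24 genes above and 7 below.

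Actin cytoskeleton genes and targets of serum response factor were among those above. Of 32 measured, 10 were above both control groups and 1 below, where 2.63% and 1.45% of all genes were. Against sparse control 19 were higher and 6 lower (median 0.30), where 23.4% and 19.5% of all genes were. Against confluent control 20 were higher and 1 lower, and the confluent control itself had a median of -0.18 from sparse control. Yap cells at the same density had a median of 0.15 from sparse control, with 14 higher and 6 lower. Vcl, the focal adhesion protein vinculin, read 11.39 and 11.43 in sparse control, 12.76 and 12.70 in Tead2-VP16 and 11.27 and 11.27 in confluent control cells. It was 2.5-fold above sparse (1.32 ± 0.054, adjusted p = 4.0e-08) and 2.76-fold above confluent control (1.46 ± 0.054, adjusted p = 2.6e-07). Myl9, a myosin light chain, read 8.62 and 8.65 (sparse), 10.21 and 10.09 (Tead2-VP16) and 8.92 and 9.01 (confluent) and was 2.86-fold above sparse control (1.52 ± 0.066). Tpm1, a tropomyosin, read 11.89 and 11.90 (sparse), 13.03 and 13.01 (Tead2-VP16) and 11.74 and 11.76 (confluent) (1.12 ± 0.051), with 3 of its 4 probe sets of that sign. Csrp1, a LIM protein of the actin cytoskeleton, was 2.25-fold above sparse control (1.17 ± 0.051). Not all members rose. Fhl1, a LIM-only protein, stood at -1.36 ± 0.064 against sparse control, although 1 of its 2 probe sets had the opposite sign.

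In all, 9 density-dependent genes had moved to the far side of the sparse level, and all are named here after their values were seen. They were Acta2, Actg2, Tagln, Id2, Pde4b, Mcf2l and Gm15867, which fell with density in control cells, and Adamts1 and Rasgrp3, which rose. In Yap cells the 7 falls had a median of 0.72 from sparse control, against 0.98 in Tead2-VP16 cells. The 2 rises had medians of 0.20 and -0.57 in Yap and Tead2-VP16 cells. Acta2, smooth muscle actin, read 13.08 and 13.11 in sparse control, 14.07 and 14.05 in Tead2-VP16 and 11.996 and 12.13 in confluent control cells. It was 1.95-fold above sparse control (0.96 ± 0.061, adjusted p = 7.4e-07) where the density step was -1.03. Tagln, a smooth muscle actin-binding protein, read 10.09 and 10.06 (sparse), 11.23 and 11.28 (Tead2-VP16) and 8.55 and 8.65 (confluent), and was 2.27-fold above sparse control (1.18 ± 0.055, adjusted p = 9.3e-08). Actg2, another smooth muscle actin, read 7.47 and 7.23 (sparse), 8.37 and 8.51 (Tead2-VP16) and 6.02 and 5.17 (confluent) (1.09 ± 0.21, adjusted p = 0.0019). Actin paralogs are near-identical in sequence, so their probe sets may share signal. Id2, a relative of Id1, was at 0.98 ± 0.080, with 2 of 3 probe sets of that sign. Pde4b, a phosphodiesterase that degrades cyclic AMP, was at 0.57 ± 0.062, with 3 of 6 probe sets of that sign and no call when they were averaged. Adamts1, a matrix protease, went the other way, at 9.37 and 9.32 in sparse control, 8.48 and 8.55 in Tead2-VP16 and 11.17 and 11.08 in confluent control cells (-0.83 ± 0.060, adjusted p = 1.8e-06).

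**Figure D4:**
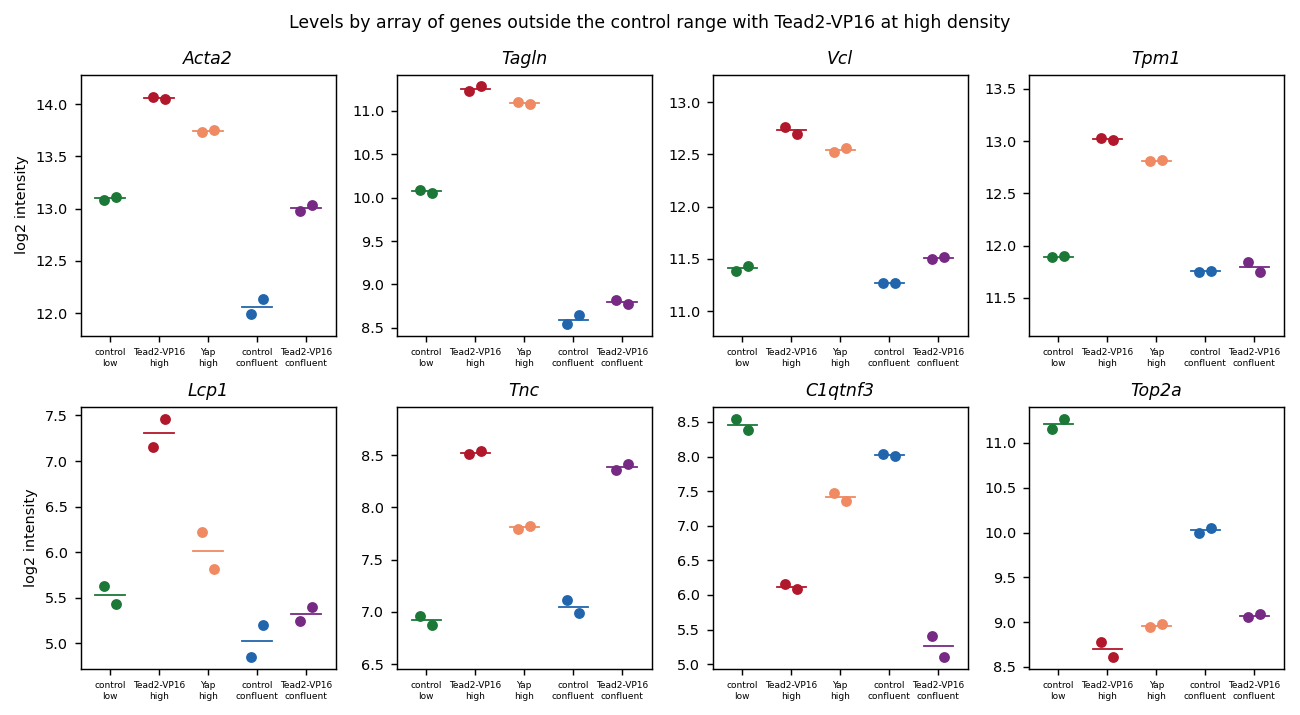
Log2 intensity (vertical axis, own range in each panel) on each array of 5 groups, with dots for arrays and lines for group means. By the plotted probe sets, Acta2, Tagln, Vcl, Tpm1, Lcp1 and Tnc were higher in dense Tead2-VP16 cells than in either control group, and C1qtnf3 and Top2a lower.

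The promoters of Acta2 and Vcl are shown as 2 members that were above both control groups (250 bases before the start, RefSeq, GRCm38.p6). GGAATG and, in Vcl, a strict CArG box, the sequence bound by serum response factor, are in capitals. Only the strict form, CC and GG around A or T alone, was marked and counted. Looser forms with another base inside, such as ccctatatgg and ccttgtttgg in Acta2, were not.
Acta2, chr19:34255374-34255623, minus strand: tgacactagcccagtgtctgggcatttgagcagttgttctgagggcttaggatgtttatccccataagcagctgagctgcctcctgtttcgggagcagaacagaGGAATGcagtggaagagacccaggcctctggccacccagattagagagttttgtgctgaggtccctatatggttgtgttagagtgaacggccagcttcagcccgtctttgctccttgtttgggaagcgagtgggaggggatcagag
Vcl, chr14:20929148-20929397, plus strand: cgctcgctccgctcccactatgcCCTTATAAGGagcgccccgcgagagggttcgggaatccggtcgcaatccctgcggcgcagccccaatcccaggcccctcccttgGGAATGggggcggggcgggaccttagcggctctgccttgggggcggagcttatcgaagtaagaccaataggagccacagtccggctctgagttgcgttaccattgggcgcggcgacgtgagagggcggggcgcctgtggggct
GGAATG stood 146 bases before the start in Acta2 and 143 in Vcl, and the CArG box of Vcl, CCTTATAAGG, stood 227 bases before the start. The motifs did not overlap. Over the 300-base windows a CArG box, which reads alike on both strands, was found in 1.63% of all promoters, in 1.35% of those of the genes tested and in 4.91% of those of genes above both control groups. It was also in 2 of 39 promoters of kept rises (5.13%) and in 1 of 23 of kept falls (4.35%). By gene, 21 of 375 genes above both groups with a promoter in the table held one (5.6%), against 229 of 14452 (1.58%) among the genes tested. Myl9, Vcl and Cnn2 of the actin list were among the 21, as were genes outside it, such as Acta1, Cbr2, Asgr1, Lamtor4 and Chmp2a. GGAATG was found in 15.5% of the promoters of genes above and in 9.36% of those of genes below both groups. No test was made of these shares.

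The genes farthest above both controls were of other kinds. Klhl29, a Kelch family protein, read 6.50 and 6.57 in sparse control, 8.43 and 8.32 in Tead2-VP16 and 6.77 and 6.79 in confluent control cells (1.84 ± 0.057 and 1.59 ± 0.057). Lcp1, an actin-bundling protein best known from white blood cells, read 5.63 and 5.43 (sparse), 7.15 and 7.46 (Tead2-VP16) and 4.85 and 5.20 (confluent) (1.77 ± 0.17 and 2.28 ± 0.17). Itgb8, an integrin that activates TGF-beta, read 5.12 and 4.95 (sparse), 7.97 and 8.13 (Tead2-VP16) and 6.64 and 6.48 (confluent) (3.01 ± 0.080 and 1.49 ± 0.080). In these 3 genes neither control group overlapped the Tead2-VP16 arrays, and all their control readings lay below the median gene, not shown to be above background. Tnc, the matrix protein tenascin C, was 3.04-fold above sparse and 2.78-fold above confluent control, but only 1 of its 2 probe sets had that sign. Mgp, a calcification inhibitor of the matrix, was 10.6-fold above sparse control (3.41 ± 0.11), and its density step was 1.94. Beside Lcp1, 1 of 8 macrophage markers was higher than in sparse control, Lyz2 at 0.46 ± 0.067, and 1 lower, Cd68 at -0.43 ± 0.076, and 2 of the 8 lay above the median gene. Their summed log2 level was 8.95 to 9.00 in sparse control, 9.18 to 9.25 in Tead2-VP16 and 9.60 to 9.64 in confluent control cells, where Lcp1 was lowest of the 3 groups. Their part in the result was not tested.

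Below both controls, C1qtnf3, a secreted relative of complement C1q, read 8.54 and 8.38 in sparse control, 6.16 and 6.08 in Tead2-VP16 and 8.03 and 8.004 in confluent control cells. It was 5.06-fold below sparse (-2.34 ± 0.11, adjusted p = 1.3e-07) and 3.73-fold below confluent control (-1.90 ± 0.11, adjusted p = 3.5e-06). Ranbp3l, which exports Smad proteins from the nucleus, read 8.99 and 8.93 (sparse), 7.46 and 7.51 (Tead2-VP16) and 9.63 and 9.59 (confluent) (-1.47 ± 0.065 and -2.13 ± 0.065). H3f3b, which encodes histone H3.3, read 7.58 and 7.53 (sparse), 5.74 and 5.91 (Tead2-VP16) and 7.54 and 7.77 (confluent) (-1.73 ± 0.10 and -1.83 ± 0.10). In all 3 the Tead2-VP16 arrays lay under every control array. The Tead2-VP16 readings of C1qtnf3 and H3f3b lay below the median gene of 6.87 and were not shown to be above background. Each of these 2 genes was read by 1 probe set. At complete confluency the contractile genes were lower in Tead2-VP16 cells. From high density to complete confluency Tagln changed by -2.46 ± 0.055, Acta2 by -1.05 ± 0.061, Vcl by -1.22 ± 0.054 and Tpm1 by -1.22 ± 0.051, each at an adjusted p of 5.3e-06 or below. For Tnc the change was -0.14 ± 0.063 and did not pass the test (adjusted p = 0.15).

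Yap cells at the same density were the closest reference. Between Tead2-VP16 and Yap cells, 367 genes (2.02%) passed the test, 197 higher (1.08%) and 170 lower (0.934%) in Tead2-VP16 cells. Only 2 genes were at least 2-fold higher (0.011%) and 6 at least 2-fold lower (0.033%). The count was 86 and 188 without the first and second Tead2-VP16 array, and 95 and 81 without the first and second Yap array. Ccn2 was 1.86-fold lower in Tead2-VP16 than in Yap cells, at 8.85 and 8.84 against 9.73 and 9.76 (-0.90 ± 0.11, adjusted p = 0.0032). Ccn1 was also lower (-0.46 ± 0.055, adjusted p = 0.0033). For Ankrd1 the difference was -0.27 (interval -0.47 to -0.06) and did not pass the test. Tgm2 was higher in Tead2-VP16 cells, at 10.71 and 10.59 against 9.87 and 9.90 (0.76 ± 0.071, adjusted p = 0.00090). Among kept genes, Prkg2 was higher in Tead2-VP16 than in Yap cells (0.47 ± 0.075, adjusted p = 0.013) and H1f2 lower (-0.86 ± 0.067, adjusted p = 0.00047). Dusp6, Ccl2 and Rspo2 had intervals of -0.04 to 0.18, -0.19 to 0.30 and -0.24 to 0.05 for the same difference.

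Counts of early response, growth factor and Wnt genes are set beside the shares over all genes, 23.4% higher and 19.5% lower. Of 32 immediate early and ERK feedback genes, 9 were higher and 12 lower than in sparse control. Egr1 and Egr2, serum-induced transcription factors, rose by 1.96 ± 0.058 and 2.67 ± 0.070 on the log2 scale, Egr2 from 4.61 and 4.64, below the median gene, and Fosl1, of the AP-1 family, fell 3.49-fold (-1.80 ± 0.073). Ptgs2, the inducible prostaglandin synthase, read 10.13 and 9.97 in sparse control, 8.26 and 8.41 in Tead2-VP16 and 7.32 and 7.46 in confluent control cells, a 3.28-fold fall (-1.71 ± 0.086). Among 36 growth factors and receptors, 14 were higher and 8 lower, and 13 were lower with arrays centred on their medians. Tgfb3, a TGF-beta ligand, rose 4.48-fold to above both control states (2.16 ± 0.088). Among 28 genes of the Wnt list, 6 were higher and 4 lower, close to those shares. The list held Tcf4, which is not the Wnt effector Tcf7l2, and Tcf4 was in neither count. Lrp6, the Wnt coreceptor, rose 2.91-fold to the confluent level (1.54 ± 0.081).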

How the data were processed

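The authors deposited one table of linear intensity values for 45101 probe sets on 12 Affymetrix arrays, made with RMA per the submitters' processing notes, and array medians ran from 51.9 to 53.7. The number of arrays limits the precision. Values were turned into log2, since the deposited scale was linear; 34945 probe sets carried a single gene symbol, and the one with the highest mean over 12 arrays stood for each of 18193 genes. All 12 arrays entered one limma fit (version 3.58.1, R 4.3.3; 1 mean per group, lmFit, contrasts.fit and eBayes, 6 residual degrees of freedom), two-sided, with Benjamini-Hochberg adjustment over all genes and calls at 0.05. Scripts were tested on simulated data. Replicate numbers did not pair samples (r = -0.061 between same-numbered arrays of the compared groups). Named genes were the Tead factors, Yap1, Wwtr1, Ccn1, Ccn2 and Ankrd1, the 8 largest changes, the 8 largest steps of the kept and confluent classes in each direction, the 5 genes farthest above or below both controls or Yap, and up to 4 called genes per list, passing over unnamed clones; exceptions are marked. Members and gene lists (26 lists, 635 entries measured, with some genes in several lists) were chosen with earlier results of these data known. Promoters were read from a RefSeq table.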

Additional observations from a re-analysis of the deposited data

Results flagged for a closer look

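Tead2-VP16 and Yap cells at the same density differed in 367 genes by limma's test of that difference, which is also the test of the difference between their changes from sparse control. Those at least 2-fold apart that the naming rule reached are given here with their array values. Mycn was higher in Tead2-VP16 cells, at 12.40 and 12.22 against 11.26 and 11.12 on the Yap arrays (1.11 ± 0.077 SE, adjusted p = 0.00027), with 1 of 3 probe sets following its change from sparse control. Lcp1 was higher as well, at 7.15 and 7.46 against 6.22 and 5.82 (1.29 ± 0.17, adjusted p = 0.0060). Lower in Tead2-VP16 cells were Slurp1, a secreted Ly6 family protein, at 10.13 and 10.10 against 11.51 and 11.57 (-1.43 ± 0.063, adjusted p = 1.6e-05), and C1qtnf3, at 6.16 and 6.08 against 7.47 and 7.35 (-1.29 ± 0.11, adjusted p = 0.00078). Golt1b, a Golgi transport protein, read 5.68 and 6.18 against 7.15 and 7.23 (-1.26 ± 0.16, adjusted p = 0.0047). Ogn, a small proteoglycan, read 9.46 and 9.43 against 10.68 and 10.72 (-1.26 ± 0.057, adjusted p = 1.6e-05). Fhl1 read 7.76 and 7.75 against 8.94 and 8.93 (-1.18 ± 0.064, adjusted p = 6.0e-05), with its 2 probe sets of opposite sign against sparse control. In each gene the arrays of the 2 groups did not overlap. The Tead2-VP16 readings of C1qtnf3 and Golt1b, and the Yap readings of Lcp1, lay below the median gene of 6.87.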

How the results depend on the processing

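With every probe set tested on its own, 13726 probe sets differed between Tead2-VP16 and sparse control, 15904 between the control groups, 759 between Tead2-VP16 and Yap, 7202 between the 2 densities of Tead2-VP16 cells, and 122 were kept at the sparse level. That setting counts probe sets, not genes. Between Tead2-VP16 and Yap, 986 genes were called above the median level only, 1058 with a variance trend and robust prior, and 78 with only the arrays compared. Outside both controls were 1158 genes with the variance trend and 373 with only the arrays compared. Kept genes numbered 16 with limits of 0.3, 142 with limits of 1 and 14 with a 3-fold step. Leaving out 1 array at a time gave 6895 to 7285 calls against sparse control, 7979 to 8441 for the control groups, 81 to 188 against Yap, 2765 to 3411 for the step in Tead2-VP16 cells, 368 to 609 outside both controls and 59 to 83 kept. With the replicate number as a block, 7766 genes were called against sparse control, 8896 for the control groups, 339 against Yap, 4377 for the step in Tead2-VP16 cells and 658 outside both controls, and 69 were kept, 68 of them shared. Where a gene's probe sets were averaged, Nfia reversed to -0.103 and Tagln2 to 0.0104, and 49 of the 72 kept genes were kept. Of 212 named genes, 194 to 210 kept their direction and side of the threshold against sparse control in the settings that tested all of them, and 183 did where genes below the median level were left out. The causes were not tested. The alternatives for both steps to confluency were chosen after seeing the data.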

Other observations

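Stress, oxygen and immune genes were also read in dense Tead2-VP16 cells against sparse control, where 23.4% of all genes were higher and 19.5% lower. Of 30 genes of the unfolded protein and amino acid responses, 8 were higher and 18 lower (median -0.465). Dnajb9, a chaperone of the endoplasmic reticulum, read 8.26 and 8.36 in sparse control, 10.21 and 10.22 in Tead2-VP16 and 9.31 and 9.42 in confluent control cells (3.74-fold, 1.90 ± 0.058, limma adjusted p = 5.8e-09). Xbp1, a factor of the same response, rose 2.74-fold (1.46 ± 0.058), and both were above the 2 control states. The serine and cysteine pathway enzymes Shmt2 and Cth fell 3.41-fold and 2.71-fold. Of 26 hypoxia and glycolysis genes, 11 were higher and 10 lower (median 0.117), among them Bnip3, a mitophagy receptor, which rose 2.12-fold.

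Of 26 interferon response genes, 17 were higher and 2 lower (median 0.400, and 0.543 in confluent control). Gbp2, an interferon-induced GTPase, rose by 1.84 ± 0.071 on the log2 scale and Ifit2 fell 3.03-fold (-1.60 ± 0.076). Of 12 genes in the complement list, 5 were higher and 1 lower. That list also held C1qtnf1 and C1qtnf3, secreted relatives of complement C1q, and C1qtnf3 was the 1 lower gene. C1s1, a protease of the first complement complex, rose 11-fold (3.46 ± 0.075), from sparse readings of 6.02 and 6.21, below the median gene. Of 28 chemokine and inflammation genes, 8 were higher and 4 lower, near the shares over all genes of 23.4% and 19.5%. Ccl9, a chemokine, rose 5.46-fold (2.45 ± 0.057) and Cxcl5, another, read 9.73 and 9.61 in sparse control and 8.66 and 8.76 in Tead2-VP16 cells (-0.96 ± 0.079). Of the markers of other cell types, 1 of 6 adipocyte genes was higher and none lower, 1 of 8 macrophage genes was higher and 1 lower, 2 of 8 epithelial genes were higher and 1 lower, and 1 of 8 skeletal muscle genes was higher. None of the 8 endothelial markers passed, and none lay above the median gene. Fibroblast markers were higher in 5 and lower in 1 of 7.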
